A study of Mus musculus with 26 samples.

Results

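The genes described are the mouse classical cadherins and the protocadherins that lie outside the clustered arrays, 29 genes out of the 39017 in the count table. They were taken by gene symbol from a list of names of the family. The list holds 5 type I cadherins, 13 type II cadherins, the cadherin without a cytoplasmic tail Cdh13, 4 delta-1 and 5 delta-2 protocadherins, and Pcdh20. The table of RPKM (reads scaled by transcript length and library size) has a row for 28 of them. Cdh15 has none there and was found in the count table by its Ensembl identifier.

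The study sequenced messenger RNA of 8 subtypes of dorsal root ganglion neuron, each sorted by fluorescence from adult mice aged postnatal day 23 or older. Aβ RA-LTMRs had 5 libraries and each other subtype 3, which makes 26, and every library pooled neurons of several mice and several sorts. LTMR stands for low-threshold mechanoreceptor, a neuron that responds to light touch. Nonpeptidergic nociceptors carried MrgD-EGFP, peptidergic nociceptors carried CGRP-GFP, and the rapidly adapting (RA) Aβ-LTMRs carried Npy2r-GFP, all without tamoxifen. C-LTMRs carried ThCreER with the tdTomato reporter Ai14 and had 2 mg of tamoxifen a day on postnatal days 13 and 14 or 14 and 15. Aδ-LTMRs carried TrkBCreER with Ai14 and had the same dose on embryonic days 12 and 13. The slowly adapting (SA1) and Field Aβ-LTMRs shared TrkCCreER and a GFP allele of Ret. The SA1 mice had 3 mg at E12.5, and the Field mice 2 mg a day on postnatal days 13 and 14 or 14 and 15. Proprioceptors, the afferents of muscle, carried PVIRESCre with Ai14 and came from thoracic ganglia alone, while ganglia of all levels served for the others. Reporter, tamoxifen and, for proprioceptors, axial level cannot be told apart from subtype.

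Cadherins are calcium-dependent adhesion proteins that bind mostly their own kind on a neighbouring cell. Type I and type II cadherins hold actin through catenins, delta-1 protocadherins can bind the phosphatase PP1, and several delta-2 protocadherins recruit the WAVE complex, which drives actin branching. In the nervous system these families are known for sorting neurons into groups, for guiding axons and for matching synaptic partners, and combinations of them distinguish spinal neuron pools.

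Library totals lay between 10706522 counts (Field library 2) and 66309214 counts (C-LTMR library 3), and all 29 members passed the filter on low counts. All 8 sensory neuron markers were detected in every subtype. The gene behind each label was highest in its own subtype for Mrgprd, Calca, Th, Ntrk2, Pvalb and, in SA1 and Field neurons, Ntrk3. Npy2r went against this, at 20.4 CPM (counts scaled by library size) in Aβ RA-LTMRs and 52.9 CPM in peptidergic nociceptors. Reads of 25 to 50 bases made up Aβ RA-LTMR libraries 1 to 3 and all SA1 libraries, reads of 15 to 51 bases made up Aδ-LTMR libraries 1 and 2, and the rest held reads of 15 to 50 bases. Those 2 Aδ-LTMR libraries had the lowest mapping rates, 61.4% and 74.5%. Levels below are CPM scaled by library factors, with the SD over libraries, and n is 3 for each subtype and 5 for Aβ RA-LTMRs. These are sorted bulk pools, in which fewer cells with a transcript and less transcript per cell cannot be told apart, and the p-values measure the spread between the pools.

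Nearly every member differed among the subtypes. With edgeR's quasi-likelihood F test, 28 of 29 had an adjusted p under 0.05, against 78.3% of the 17411 genes tested, and the exception was the type II cadherin Cdh24 (adjusted p = 0.374). A pairwise difference is said to pass when its adjusted p is under 0.05 and its log2 fold change is 1 or more in size, and a member is called enriched in a subtype, or depleted from it, when it passes in that direction against each of the other 7. By that rule 18 members were enriched in or depleted from a subtype, against 13.8% of genes. There were 8 enriched members, against 5.53% of genes, and they were Cdh9 and Cdh10 in C-LTMRs, Cdh12, Cdh20, Pcdh8 and Pcdh10 in proprioceptors, Pcdh1 in peptidergic nociceptors and Cdh5 in Aδ-LTMRs. There were 13 depleted members, against 9.18% of genes, 12 of them in nonpeptidergic nociceptors (6.50% of genes) and Cdh15 in C-LTMRs (0.431% of genes).

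**Figure D1:**
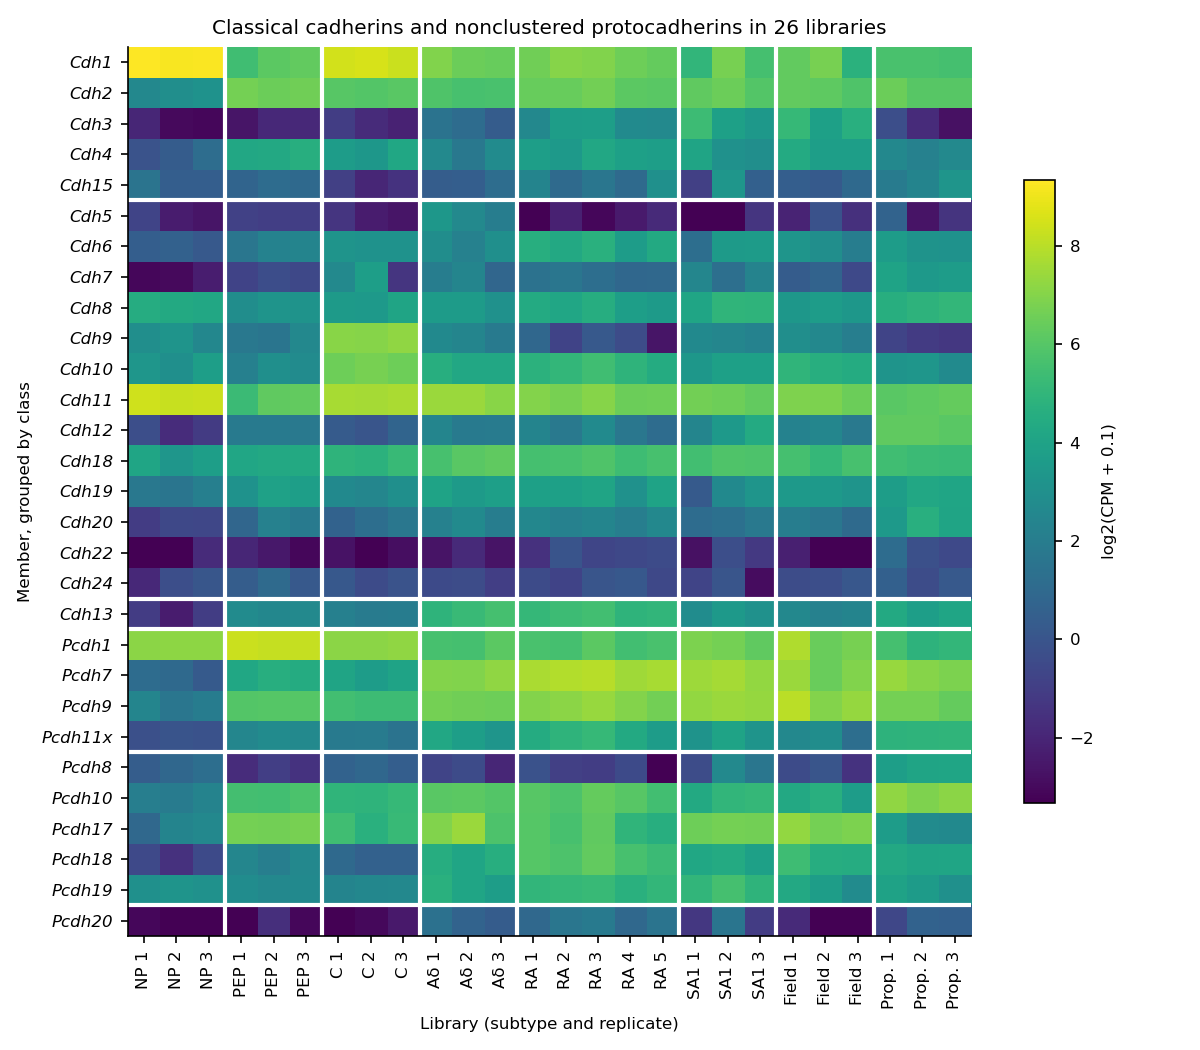
Level of each of the 29 members (rows, grouped by class: type I, type II, Cdh13, delta-1, delta-2, Pcdh20) in each of the 26 libraries (columns, grouped by subtype, with replicate number) as log2(CPM + 0.1), where the colour bar gives the scale. NP and PEP are nonpeptidergic and peptidergic nociceptors, C and Aδ the thin-fibre LTMRs, RA, SA1 and Field the Aβ-LTMRs, and Prop. the proprioceptors; the NP columns are dark for most protocadherins and bright for Cdh1 and Cdh11.

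The make-up of the family, read as each member's share of the 28 members' summed RPKM, differed between subtypes. In nonpeptidergic nociceptors Cdh1, E-cadherin, took 52.8% ± 0.417 of the sum (SD over libraries), Pcdh1 20.5% and the type II cadherin Cdh11 18.5%, so that these 3 genes made up 91.9%. In peptidergic nociceptors Pcdh1 alone took 47.7% ± 4.09, and Cdh2, N-cadherin, came next at 9.19%. C-LTMRs had Cdh1 at 30.3%, Pcdh1 at 17.1%, Cdh11 at 12.1%, Cdh9 at 9.55% and Cdh10 at 8.89%. The delta-1 protocadherin Pcdh7 had the highest mean share in Aδ-LTMRs (15.1%), Aβ RA-LTMRs (18.6%), Aβ SA1-LTMRs (16.6%) and proprioceptors (15.9%). Field neurons were led by Pcdh1 at 22.4% ± 2.87, with Pcdh9 at 16.96%. Pcdh10 ranked second in proprioceptors at 11.7%. At a mean of 1 RPKM or more there were 8 members in nonpeptidergic nociceptors, 15 in peptidergic nociceptors and 17 to 22 in each of the other 6 subtypes. The share of all genes at that level was not counted, so nothing particular to the family can be read from these counts. These shares were not tested. The deposited RPKM did not follow CPM by a fixed factor for each gene. Mean Pcdh1 was 56.8 CPM and 22.3 RPKM in Aδ-LTMRs, but 53.6 CPM and 12.8 RPKM in Aβ RA-LTMRs. Shares on RPKM can therefore differ between subtypes where the counts do not.

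**Figure D2:**
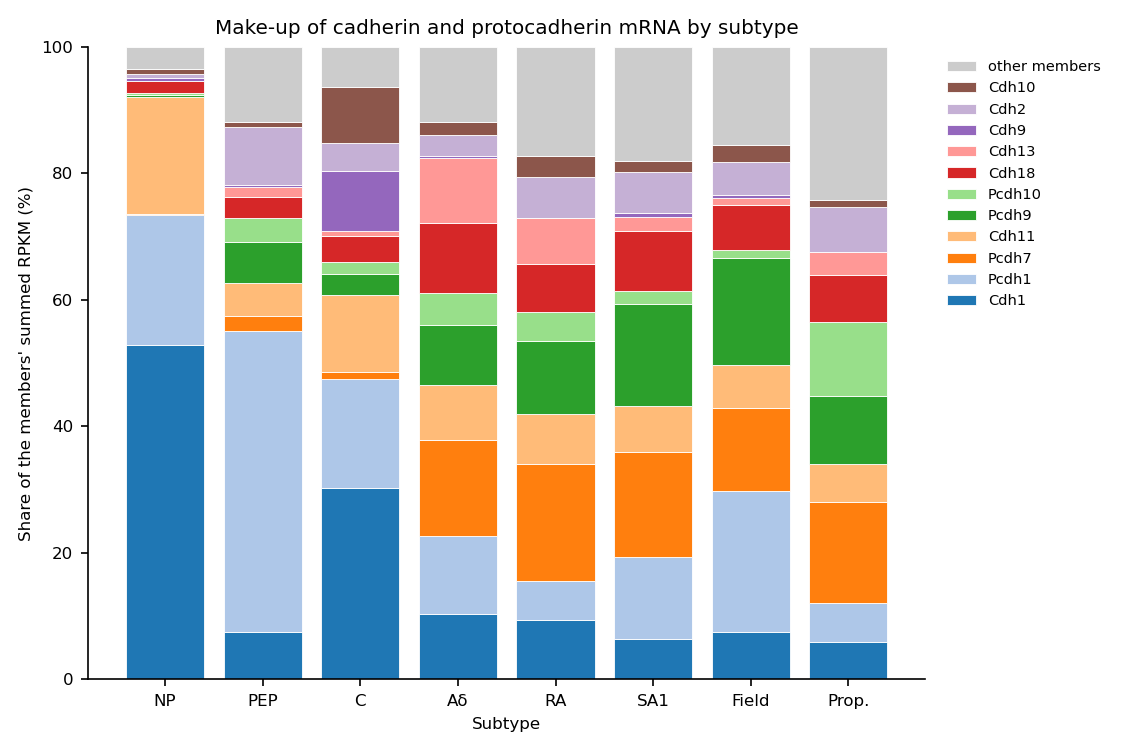
Mean share (%) of the summed RPKM of the 28 members with an RPKM row, for each subtype (x axis), as stacked bars that reach 100%; the 11 members with the highest share in any subtype have a colour and the others are grey. Cdh1 fills the lowest block, 52.8% of the bar in nonpeptidergic nociceptors (NP), and Pcdh1 fills 47.7% in peptidergic nociceptors (PEP).

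Among the type I cadherins, which form strong adherens junctions, Cdh1 was highest in nonpeptidergic nociceptors and C-LTMRs, Cdh3 was highest in the Aβ-LTMRs, and Cdh2 and Cdh4 were low in nonpeptidergic nociceptors. Cdh1 stood at 647, 604 and 624 CPM in nonpeptidergic nociceptors and 360.4, 379.8 and 317 CPM in C-LTMRs, the subtypes with the highest levels. In CPM it was 44.1, 72.0 and 77.7 in peptidergic nociceptors, 124, 89.5 and 84.1 in Aδ-LTMRs, 81.1 to 129 (median 96.0) in Aβ RA-LTMRs, 31.7, 108 and 48.8 in SA1 neurons, 78.8, 106 and 27.5 in Field neurons and 52.9, 52.5 and 49.4 in proprioceptors. No library of those 6 subtypes reached the lowest C-LTMR library. The 4 epithelial markers summed to at most 0.666 CPM in any library. The step from C-LTMRs down to Aβ RA-LTMRs passed at a log2 fold change of 1.75 (SE 0.31, adjusted p = 5.9e-05), and the step from nonpeptidergic nociceptors to C-LTMRs did not, at 0.83 (SE 0.36, adjusted p = 0.0738).

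Cdh3, P-cadherin, had its highest levels in the 3 Aβ-LTMR subtypes. It stood at 41.4, 14.4 and 10.5 CPM in SA1 neurons, 35.3, 14.5 and 25.4 CPM in Field neurons and 6.004 to 13.8 (median 6.53) CPM in Aβ RA-LTMRs. Levels were lower in Aδ-LTMRs (2.70, 2.12 and 1.20 CPM) and lower again in proprioceptors (0.726, 0.199 and 0.0508 CPM). The highest library of the nociceptors and C-LTMRs, a C-LTMR library, had 0.397 CPM, with 0.160, 0.0231 and 0.0166 CPM in nonpeptidergic nociceptors, 0.0639, 0.172 and 0.174 CPM in peptidergic nociceptors and 0.397, 0.195 and 0.133 CPM in C-LTMRs. The steps from Aβ RA-LTMRs to Aδ-LTMRs, 2.20 (SE 0.56, adjusted p = 0.00667), and from Aδ-LTMRs to proprioceptors, 2.91 (SE 0.71, adjusted p = 0.00373), both passed on the log2 scale.

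Cdh2, N-cadherin and the main classical cadherin of synapses, had a single passing step in its order of levels, between Aδ-LTMRs and nonpeptidergic nociceptors. It stood in the latter at 5.99, 7.60 and 8.73 CPM, against 103, 89.7 and 97.0 CPM in peptidergic nociceptors, 65.2, 60.8 and 67.8 CPM in C-LTMRs and 57.1, 50.4 and 51.1 CPM in Aδ-LTMRs. The large-fibre subtypes lay in the same range, at 67.6 to 99.3 (median 83.7) CPM in Aβ RA-LTMRs, 75.7, 88.6 and 61.6 CPM in SA1 neurons, 77.9, 73.1 and 58.0 CPM in Field neurons and 90.3, 65.7 and 65.3 CPM in proprioceptors. The smallest of the 7 differences that make Cdh2 depleted from nonpeptidergic nociceptors was -2.83 (largest adjusted p = 8.2e-12) on the log2 scale.

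Cdh4, R-cadherin, had 0.855, 1.20 and 2.19 CPM in nonpeptidergic nociceptors and 19.1, 20.1 and 24.5 CPM in peptidergic nociceptors, where its mean was highest. C-LTMRs had 12.9, 10.2 and 18.2 CPM, Aβ RA-LTMRs 11.6 to 19.1 (median 13.6) CPM, SA1 neurons 16.9, 8.31 and 7.52 CPM, Field neurons 21.3, 13.6 and 13.4 CPM, Aδ-LTMRs 6.02, 3.27 and 6.69 CPM and proprioceptors 5.90, 4.57 and 6.04 CPM. Its depletion from nonpeptidergic nociceptors had a smallest log2 difference of -1.91 (largest adjusted p = 9.3e-05). The muscle cadherin Cdh15 was scarce, at 0.424, 0.156 and 0.266 CPM in C-LTMRs, 1.25, 1.30 and 2.23 CPM in Aδ-LTMRs, 2.85, 1.27 and 1.29 CPM in nonpeptidergic nociceptors, 1.56, 2.12 and 1.90 CPM in peptidergic nociceptors and 1.29, 1.11 and 1.93 CPM in Field neurons. It reached 3.81, 5.07 and 9.63 CPM in proprioceptors, 1.99 to 8.09 (median 3.06) CPM in Aβ RA-LTMRs and 0.428, 9.90 and 1.37 CPM in SA1 neurons, whose lowest library was just above the highest of the C-LTMRs. Its depletion from C-LTMRs, -2.40 (largest adjusted p = 0.0239) on the log2 scale, was lost with either marker score in the fit, without the low-count filter, and when C-LTMR library 2 or 3, Aδ-LTMR library 3 or Field library 3 was left out.

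The type II cadherins Cdh9 and Cdh10, which have been studied in synapse formation, were both enriched in C-LTMRs, against 0.902% of genes. Cdh9 measured 135, 132 and 149 CPM in C-LTMRs. Elsewhere it had 7.63, 9.20 and 5.75 CPM in nonpeptidergic nociceptors, 3.23, 2.89 and 5.92 CPM in peptidergic nociceptors, 6.37, 5.35 and 3.57 CPM in Aδ-LTMRs, 6.28, 5.44 and 4.77 CPM in SA1 neurons and 7.45, 5.88 and 4.22 CPM in Field neurons. Aβ RA-LTMRs had 0.0624 to 1.76 (median 0.666) CPM and proprioceptors 0.499, 0.358 and 0.321 CPM. The highest library outside C-LTMRs was below 10 CPM, so the groups stood far apart, and the smallest log2 difference was 4.21 (largest adjusted p = 1.2e-07). This call was lost when the endothelial score entered the fit. An exon of the antisense gene Gm49127 overlaps Cdh9, and since the handling of strand is not known, reads there cannot be assigned to one gene or the other.

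Cdh10 showed the same leader with a smaller gap. It had 92.7, 107 and 92.3 CPM in C-LTMRs, 21.8 to 44.3 (median 30.0) CPM in Aβ RA-LTMRs, 30.8, 24.1 and 22.1 CPM in Field neurons and 24.8, 18.9 and 19.1 CPM in Aδ-LTMRs. Levels were 10.3, 14.7 and 14.8 CPM in SA1 neurons and 9.34, 9.80 and 6.56 CPM in proprioceptors, and nociceptors had 9.96, 7.74 and 13.6 CPM (nonpeptidergic) and 4.50, 7.77 and 6.80 CPM (peptidergic). C-LTMR libraries did not overlap any other, and the smallest log2 difference was 1.62 (largest adjusted p = 2.2e-06). Below C-LTMRs no step between neighbours in the order of levels passed.

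Sequences upstream of a RefSeq start of each gene of this pair are shown because both genes led in the same subtype. They are the 250 bases before the RefSeq transcription start in GRCm38.p6, written 5′ to 3′ on the strand of the gene, with capitals for any match to a searched motif. The windows are chr15:16728665-16728914 (+ strand) for Cdh9 and chr15:18820079-18820328 (+ strand) for Cdh10. The gene annotation used for positions starts Cdh9 at 16728756 and Cdh10 at 18818947. By that annotation the Cdh9 window crosses the start of the gene, and the Cdh10 window lies inside the gene.
Cdh9: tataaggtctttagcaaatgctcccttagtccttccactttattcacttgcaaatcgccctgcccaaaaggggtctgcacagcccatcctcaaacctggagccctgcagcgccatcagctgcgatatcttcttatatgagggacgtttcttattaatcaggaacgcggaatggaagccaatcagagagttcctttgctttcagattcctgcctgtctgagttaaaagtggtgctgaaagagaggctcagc
Cdh10: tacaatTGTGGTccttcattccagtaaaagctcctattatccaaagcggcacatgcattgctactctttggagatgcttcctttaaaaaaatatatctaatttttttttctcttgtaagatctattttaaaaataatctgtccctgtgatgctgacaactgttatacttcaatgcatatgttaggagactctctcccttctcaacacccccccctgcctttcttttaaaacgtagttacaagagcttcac
The motifs searched, on both strands, were the Runx core TGTGGT, the ETS motif CCGGAAGT and the TATA box TATAAA, none of which contains another. Cdh10 held 1 Runx core, and the window of Cdh9 held none of these letters. Of 32851 RefSeq windows of this length, 14.0% held TGTGGT, 2.88% CCGGAAGT and 12.4% TATAAA on either strand. The GC content was 48.0% for Cdh9 and 36.8% for Cdh10, beside a median of 52.4% over all windows. A window was at hand for 19 of the 29 members.

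Cdh12, a cadherin of the brain, was highest in proprioceptors. It measured 76.6, 77.2 and 68.4 CPM in proprioceptors and 5.27, 11.5 and 21.2 CPM in SA1 neurons, the next in order. Field neurons had 4.87, 5.47 and 3.32 CPM, Aδ-LTMRs 5.36, 3.46 and 3.69 CPM, Aβ RA-LTMRs 2.12 to 6.61 (median 3.39) CPM, peptidergic nociceptors 3.47, 3.67 and 3.42 CPM, C-LTMRs 1.139, 0.916 and 1.61 CPM and nonpeptidergic nociceptors 0.713, 0.208 and 0.365 CPM. The lowest proprioceptor library was above the highest SA1 library, and the smallest log2 difference was 2.55 (largest adjusted p = 7.3e-05). Cdh12 was also depleted from nonpeptidergic nociceptors, at -1.49 (largest adjusted p = 0.0132), a call that was lost without nonpeptidergic library 2 or 3 or C-LTMR library 3. An exon of Gm49685, on the same strand, overlaps Cdh12.

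Cdh20 and Cdh7, type II cadherins that both lie on chromosome 1, had their highest means in proprioceptors and their lowest in nonpeptidergic nociceptors. Cdh20 had 11.1, 24.9 and 16.5 CPM in proprioceptors, 4.18 to 5.96 (median 5.40) CPM in Aβ RA-LTMRs, 4.56, 6.46 and 4.03 CPM in Aδ-LTMRs, 1.74, 4.59 and 3.54 CPM in peptidergic nociceptors, 3.99, 3.14 and 2.01 CPM in Field neurons, 2.11, 2.48 and 3.37 CPM in SA1 neurons, 1.48, 2.30 and 3.13 CPM in C-LTMRs and 0.374, 0.578 and 0.547 CPM in nonpeptidergic nociceptors. It was enriched in proprioceptors, 1.76 (largest adjusted p = 6.0e-04), and depleted from nonpeptidergic nociceptors, -2.21 (largest adjusted p = 7.9e-05), on the log2 scale. The enrichment was lost when the satellite glia score or the endothelial score entered the fit. The depletion was lost with the satellite glia score and on log2(RPKM + 1). Cdh7 had 16.2, 11.4 and 12.49 CPM in proprioceptors, 5.50, 2.38 and 4.95 CPM in SA1 neurons, 4.001, 5.31 and 1.73 CPM in Aδ-LTMRs, 1.78 to 3.08 (median 2.32) CPM in Aβ RA-LTMRs, 1.18, 1.52 and 0.591 CPM in Field neurons and 0.479, 0.708 and 0.576 CPM in peptidergic nociceptors. C-LTMRs were spread over 6.22, 13.5 and 0.293 CPM, with library 2 inside the proprioceptor range and library 3 below every peptidergic library, and the step from proprioceptors to C-LTMRs, 1.00 (SE 0.65, adjusted p = 0.22), did not pass. Nonpeptidergic nociceptors had 0.0178, 0.0231 and 0.0994 CPM, which stand for 1, 1 and 6 reads. The smallest difference of that depletion was -3.50 (largest adjusted p = 0.00436), a value that depends on so few reads.

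**Figure D3:**
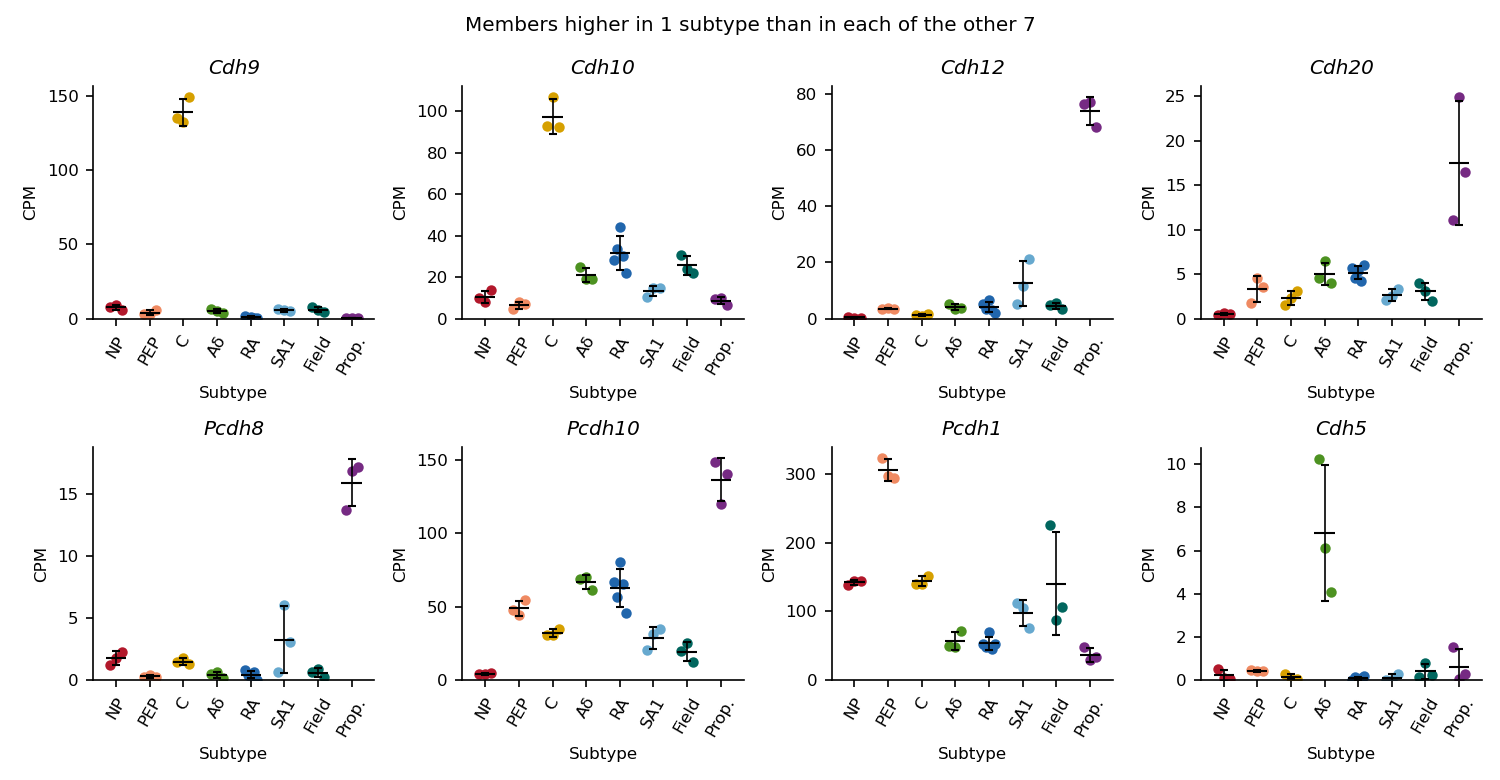
Level in CPM (y axis, linear from 0) of the 8 members enriched in a subtype, by subtype (x axis, abbreviated as in the map of all members); points are libraries, the horizontal bar is the mean and the whiskers are 1 SD. C-LTMR libraries of Cdh9 sit between 132 and 149 CPM with every other library below 10, and proprioceptor libraries of Cdh12 sit between 68.4 and 77.2 CPM.

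Cdh11, known from mesenchyme and also present in neurons, followed Cdh1 in having its top levels in nonpeptidergic nociceptors (345, 314 and 318 CPM) and C-LTMRs (208, 202 and 215 CPM). It then stood at 173, 175 and 138 CPM in Aδ-LTMRs, 91.4 to 129.8 (median 109) CPM in Aβ RA-LTMRs, 119, 115 and 89.0 CPM in Field neurons, 99.6, 92.5 and 78.2 CPM in SA1 neurons, 69.2, 73.9 and 80.2 CPM in proprioceptors and 39.1, 76.1 and 79.3 CPM in peptidergic nociceptors. No step between neighbours in this order passed, although its ends were 326 ± 16.6 and 64.8 ± 22.4 CPM (SD). Fibroblast markers, of a cell type that also has Cdh11, summed to 9.48 to 16.7 CPM in nonpeptidergic nociceptors and 133 to 160 CPM in C-LTMRs. Cdh8, a cadherin of cold-sensing and other sensory circuits, had 24.4, 28.8 and 33.6 CPM in proprioceptors, 17.2, 31.3 and 29.8 CPM in SA1 neurons, 22.5, 20.3 and 19.1 CPM in nonpeptidergic nociceptors and 11.7 to 23.6 (median 17.7) CPM in Aβ RA-LTMRs. It had 11.8, 11.1 and 16.7 CPM in C-LTMRs, 12.1, 12.4 and 8.28 CPM in Aδ-LTMRs, 10.4, 12.7 and 10.4 CPM in Field neurons and 7.41, 9.45 and 9.004 CPM in peptidergic nociceptors, and no neighbouring step passed. Exons of Gm15679 overlap it.

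Cdh6 and Cdh18 make up the rest of the well-expressed neuronal type II cadherins. Cdh6 was highest in Aβ RA-LTMRs at 12.48 to 26.5 (median 20.6) CPM and had 12.9, 9.07 and 8.80 CPM in proprioceptors, 2.31, 11.8 and 12.3 CPM in SA1 neurons, 9.13, 8.67 and 8.53 CPM in C-LTMRs and 9.71, 7.502 and 3.98 CPM in Field neurons. It was lower at 7.32, 4.64 and 7.91 CPM in Aδ-LTMRs, 3.003, 4.86 and 5.22 CPM in peptidergic nociceptors and 1.28, 1.41 and 1.08 CPM in nonpeptidergic nociceptors, from which it was depleted at -1.79 (largest adjusted p = 0.00187). The step from Aβ RA-LTMRs to proprioceptors did not pass, at 1.03 (SE 0.38, adjusted p = 0.0551). Cdh18 ran from 50.1, 67.4 and 76.6 CPM in Aδ-LTMRs through 45.2, 57.5 and 56.4 CPM in SA1 neurons, 42.5 to 57.1 (median 49.4) CPM in Aβ RA-LTMRs, 49.4, 34.7 and 49.6 CPM in Field neurons and 43.7, 39.9 and 38.5 CPM in proprioceptors. It was lower in C-LTMRs (29.8, 28.01 and 36.5 CPM), peptidergic nociceptors (18, 19.9 and 20.3 CPM) and nonpeptidergic nociceptors (17.02, 9.85 and 13.8 CPM), with no single step past the threshold.

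Cdh13, T-cadherin, which is held in the membrane by a GPI anchor and binds adiponectin, was highest in Aδ-LTMRs and Aβ RA-LTMRs. It had 30.4, 38.4 and 48.4 CPM in Aδ-LTMRs and 29.9 to 45.0 (median 33.9) CPM in Aβ RA-LTMRs, and the step between them did not pass (0.11, SE 0.23, adjusted p = 0.787). Proprioceptors had 20.7, 13.5 and 17.2 CPM, SA1 neurons 6.98, 11.6 and 8.33 CPM, peptidergic nociceptors 6.88, 5.68 and 6.04 CPM, Field neurons 5.91, 4.56 and 5.21 CPM, C-LTMRs 4.47, 3.74 and 3.84 CPM and nonpeptidergic nociceptors 0.374, 0.0925 and 0.398 CPM. The step from Aβ RA-LTMRs to proprioceptors passed, at 1.08 (SE 0.24, adjusted p = 0.00226). So did that from C-LTMRs down to nonpeptidergic nociceptors, where every library was below 0.5 CPM (3.74, SE 0.33, adjusted p = 1.5e-09).

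Of the delta-1 protocadherins, Pcdh7 and Pcdh9 were higher and Pcdh1 lower in the A-fibre subtypes together than in nociceptors and C-LTMRs. Pcdh7 had 187 to 256 (median 213) CPM in Aβ RA-LTMRs, 176, 196 and 157 CPM in SA1 neurons, 165, 134 and 114 CPM in proprioceptors, 129, 124 and 151 CPM in Aδ-LTMRs and 174, 88.4 and 123 CPM in Field neurons. It dropped to 18.7, 24.3 and 21.97 CPM in peptidergic nociceptors, 16.6, 12.7 and 16.2 CPM in C-LTMRs and 2.12, 1.90 and 1.09 CPM in nonpeptidergic nociceptors. Every A-fibre library was above every library of those 3 subtypes. The step from Field neurons to peptidergic nociceptors was 2.57 (SE 0.23, adjusted p = 1.1e-08) and that from C-LTMRs to nonpeptidergic nociceptors 3.16 (SE 0.25, adjusted p = 2.2e-10), and no step among the A-fibre subtypes passed. Exons of Pcdh7 overlap those of 4932441J04Rik, and whether the counting used strand is not given in the sources used here, so part of these reads could belong to that gene.

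Pcdh9 had the same division with a higher floor. Field neurons had 262, 128 and 164 CPM, SA1 neurons 156, 172 and 162 CPM, Aβ RA-LTMRs 98.3 to 168 (median 128) CPM, Aδ-LTMRs 104, 95.9 and 94.2 CPM and proprioceptors 103, 104 and 80.8 CPM. Peptidergic nociceptors had 62.1, 62.9 and 64.0 CPM, C-LTMRs 45.9, 41.0 and 40.4 CPM and nonpeptidergic nociceptors 5.40, 3.005 and 3.86 CPM. Here too the A-fibre libraries did not overlap the others, and the depletion from nonpeptidergic nociceptors was -3.37 (largest adjusted p = 3.9e-11). The X-linked Pcdh11x had 28.5, 30.3 and 31.1 CPM in proprioceptors, 12.7 to 36.1 (median 22.1) CPM in Aβ RA-LTMRs, 19, 13.8 and 9.78 CPM in Aδ-LTMRs and 9.06, 15.9 and 9.43 CPM in SA1 neurons. It had 5.58, 6.79 and 6.11 CPM in peptidergic nociceptors, 5.88, 7.40 and 2.25 CPM in Field neurons, 3.44, 3.80 and 2.75 CPM in C-LTMRs and 0.748, 0.878 and 0.812 CPM in nonpeptidergic nociceptors, a depletion of -2.03 (largest adjusted p = 1.5e-04).

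Pcdh1, known from airway epithelium as well as from neurons, was enriched in peptidergic nociceptors, against 0.706% of genes. It had 324, 298 and 295 CPM there, 140.4, 139.6 and 152 CPM in C-LTMRs and 139, 145 and 145 CPM in nonpeptidergic nociceptors. Field neurons were spread over 227, 88.3 and 107 CPM, SA1 neurons had 113, 105 and 76.6 CPM, Aδ-LTMRs 50.2, 48.5 and 71.8 CPM, Aβ RA-LTMRs 44.7 to 70.5 (median 51.9) CPM and proprioceptors 48.2, 29.1 and 33.5 CPM. The peptidergic libraries were above all others, Field library 1 being the nearest, and the smallest log2 difference was 1.09 (largest adjusted p = 0.00366). The enrichment was lost without Field library 2 or without Field library 3. Both of those fits kept the high Field library 1, and the cause of the loss was not tested.

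Of the delta-2 protocadherins, Pcdh8 and Pcdh10 were enriched in proprioceptors, as were the cadherins Cdh12 and Cdh20, against 0.988% of genes. Pcdh8, or arcadlin, which is known to draw N-cadherin into the cell after synaptic activity, had 13.7, 16.9 and 17.3 CPM in proprioceptors and 0.672, 6.06 and 3.08 CPM in SA1 neurons. Other levels were 1.21, 1.78 and 2.30 CPM in nonpeptidergic nociceptors, 1.46, 1.77 and 1.26 CPM in C-LTMRs, 0.646, 0.912 and 0.262 CPM in Field neurons, 0 to 0.798 (median 0.418) CPM in Aβ RA-LTMRs, 0.504, 0.632 and 0.155 CPM in Aδ-LTMRs and 0.208, 0.402 and 0.262 CPM in peptidergic nociceptors. The proprioceptor libraries lay above every other, and the smallest log2 difference was 2.29 (largest adjusted p = 0.0127). This enrichment was lost when read-length class, the satellite glia score or the endothelial score entered the fit. An overlapping gene, Gm9748, shares exonic sequence with Pcdh8.

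Pcdh10, or OL-protocadherin, an axon guidance protein, was present in every subtype. It had 149, 120.1 and 140 CPM in proprioceptors, 68.8, 70.0 and 61.4 CPM in Aδ-LTMRs, 45.4 to 80.2 (median 65.4) CPM in Aβ RA-LTMRs and 47.7, 44.6 and 54.4 CPM in peptidergic nociceptors. Lower levels were 30.9, 30.3 and 35.1 CPM in C-LTMRs, 20.3, 31.7 and 34.4 CPM in SA1 neurons, 20.1, 25.2 and 12.6 CPM in Field neurons and 4.22, 3.81 and 5.005 CPM in nonpeptidergic nociceptors. Its proprioceptor enrichment was 1.03 (largest adjusted p = 0.00112), close to the threshold, and was lost without Aδ-LTMR library 3, without proprioceptor library 1, with the endothelial score in the fit, and on both log2 RPKM scales. Its depletion from nonpeptidergic nociceptors was -2.14 (largest adjusted p = 4.0e-08). Exons of 1700027H10Rik overlap it.

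The upstream sequences of Pcdh8 (chr14:79771313-79771562, - strand) and Pcdh10 (chr3:45378148-45378397, + strand), shown because both led in proprioceptors, were read in the same way.
Pcdh8: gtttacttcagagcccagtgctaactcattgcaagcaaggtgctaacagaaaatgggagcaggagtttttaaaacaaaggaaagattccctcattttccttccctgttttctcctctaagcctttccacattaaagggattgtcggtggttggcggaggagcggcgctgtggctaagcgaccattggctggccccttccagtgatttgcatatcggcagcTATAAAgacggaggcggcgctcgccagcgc
Pcdh10: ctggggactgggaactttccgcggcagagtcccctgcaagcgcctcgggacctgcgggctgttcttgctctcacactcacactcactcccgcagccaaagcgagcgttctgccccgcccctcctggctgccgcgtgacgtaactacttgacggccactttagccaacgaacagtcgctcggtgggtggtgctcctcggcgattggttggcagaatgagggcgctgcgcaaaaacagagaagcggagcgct
Pcdh8 held 1 TATA box and Pcdh10 none of the searched letters. The GC content was 51.2% for Pcdh8 and 63.2% for Pcdh10.

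Pcdh17, Pcdh18 and Pcdh19 each had an order of their own. Pcdh17 was high in Field neurons (158, 104 and 115 CPM), Aδ-LTMRs (123, 175 and 55.8 CPM), peptidergic nociceptors (104, 99.6 and 109 CPM) and SA1 neurons (92.4, 104 and 98.3 CPM), lower in Aβ RA-LTMRs (24.7 to 76.9, median 50.04 CPM) and C-LTMRs (43.2, 25.7 and 36.8 CPM), and lowest in proprioceptors (12.7, 6.68 and 6.45 CPM) and nonpeptidergic nociceptors (1.82, 5.08 and 5.98 CPM). The step from C-LTMRs to proprioceptors passed, at 2.05 (SE 0.42, adjusted p = 3.1e-04).

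Pcdh18 had its highest mean in Aβ RA-LTMRs, at 39.9 to 77.3 (median 54.8) CPM, with 42.9, 23.8 and 23.01 CPM in Field neurons, 23.7, 17.2 and 24.2 CPM in Aδ-LTMRs, 18.8, 21.6 and 14.5 CPM in SA1 neurons and 20.2, 16.6 and 17.5 CPM in proprioceptors. It was lower in peptidergic nociceptors (5.61, 4.17 and 5.95 CPM), C-LTMRs (1.88, 1.42 and 1.44 CPM) and nonpeptidergic nociceptors (0.588, 0.254 and 0.613 CPM), and each of those 3 downward steps passed. Pcdh19, an X-linked gene of infantile epilepsy whose protein binds N-cadherin, had 32.1, 48.4 and 30.5 CPM in SA1 neurons, 26.4 to 37.3 (median 32.8) CPM in Aβ RA-LTMRs, 26.2, 17.4 and 13.1 CPM in Aδ-LTMRs, 19.8, 13.3 and 6.80 CPM in Field neurons and 15.7, 12.3 and 8.07 CPM in proprioceptors. Nociceptors and C-LTMRs were close together, at 8, 9.20 and 8.48 CPM in nonpeptidergic nociceptors, 7.06, 5.82 and 6.33 CPM in peptidergic nociceptors and 5.22, 5.73 and 5.91 CPM in C-LTMRs. No neighbouring step of Pcdh19 passed, and exons of Gm26851 overlap it. Pcdh20 stayed below 4 CPM in every library, with means of 2.62 CPM in Aβ RA-LTMRs, 1.75 CPM in Aδ-LTMRs, 1.22 CPM in SA1 neurons and 1.13 CPM in proprioceptors, and below 0.1 CPM on average in the other 4 subtypes. Cdh22 had its highest mean, 1.16 CPM, in proprioceptors, and the mean of Cdh24 ran from 0.486 to 1.42 CPM.

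The vascular member Cdh5, VE-cadherin, and the glial member Cdh19 were read beside markers of endothelium, satellite glia and Schwann cells. Cdh5 had 10.2, 6.13 and 4.07 CPM in Aδ-LTMRs and at most 1.54 CPM in any library outside them. Those others were 0.499, 0.0925 and 0.0663 CPM in nonpeptidergic nociceptors, 0.447, 0.402 and 0.401 CPM in peptidergic nociceptors, 0.291, 0.0974 and 0.0665 CPM in C-LTMRs, 0 to 0.187 (median 0.0888) CPM in Aβ RA-LTMRs, 0, 0 and 0.286 CPM in SA1 neurons, 0.139, 0.811 and 0.241 CPM in Field neurons and 1.54, 0.0596 and 0.271 CPM in proprioceptors. The summed level of 10 other endothelial markers was 40.3 to 72.7 CPM in Aδ-LTMRs and 2.36 to 19.5 CPM elsewhere, with Tie1 and Cldn5 at 0 in SA1 neurons. An endothelial score in the fit thus differs together with the Aδ-LTMR subtype and cannot be separated from it. The enrichment of Cdh5 in Aδ-LTMRs, 3.54 (largest adjusted p = 0.0225) against 0.494% of genes, was lost when the endothelial score entered the fit, at 1.40. It was also lost without Aδ-LTMR library 1 or 2, Field library 1 or 3, or proprioceptor library 2 or 3, where the comparison with the smallest difference missed the threshold. Further losses came with read-length class or the satellite glia score in the fit, without the low-count filter, without Aδ-LTMR libraries 1 and 2 together, and on libraries of 15 to 50 bases alone. The last 2 of these fits kept 1 Aδ-LTMR library.

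Cdh19, a cadherin of Schwann cell precursors and other glia, had 13.1, 19.2 and 17.1 CPM in proprioceptors, 8.31 to 16.4 (median 14.7) CPM in Aβ RA-LTMRs, 15.9, 11.8 and 13.8 CPM in Aδ-LTMRs and 8.77, 14.98 and 13.4 CPM in peptidergic nociceptors. It had 10.96, 11.6 and 9.14 CPM in Field neurons, 6.28, 5.54 and 7.73 CPM in C-LTMRs, 1.08, 6.36 and 9.62 CPM in SA1 neurons and 3.23, 2.91 and 4.36 CPM in nonpeptidergic nociceptors. No neighbouring step passed. The summed level of 12 satellite glia markers, all detected in every subtype, was also lowest in nonpeptidergic nociceptors (554 to 690 CPM) and highest in proprioceptors (2841 to 5461 CPM). The sum of 10 Schwann cell markers ran from 392 to 439 CPM in proprioceptors to 2566 to 2903 CPM in C-LTMRs, but most of it was Pmp22, at means of 224 and 2429 CPM. Counted by gene, 3 Schwann markers were higher and 1 lower in A-fibre subtypes (median 0.68), 2 higher and 0 lower in peptidergic than nonpeptidergic nociceptors (median 0.82), and 1 higher and 4 lower in C-LTMRs than Aδ-LTMRs (median -1.37). Cdh19 itself stood at 0.79 (SE 0.22, adjusted p = 0.00301) in the first of these comparisons and at -1.09 (SE 0.42, adjusted p = 0.0531) in the last, and neither passed. The rise of Cdh19 from nonpeptidergic to peptidergic nociceptors, 1.82 (SE 0.43, adjusted p = 0.00148), was 0.87 and did not pass with the satellite glia score in the fit.

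**Figure D4:**
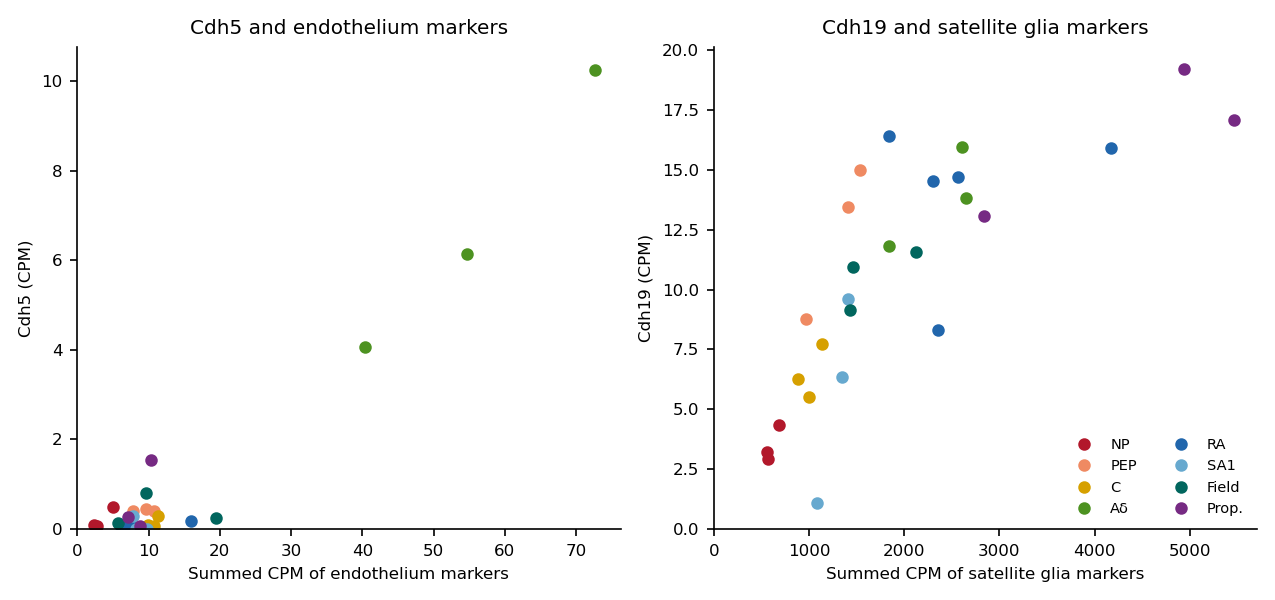
Cdh5 (left, CPM) against the summed CPM of 10 endothelial markers, and Cdh19 (right, CPM) against the summed CPM of 12 satellite glia markers, on linear axes; each point is a library, coloured by subtype. The 3 Aδ-LTMR libraries stand alone at the upper right of the left panel (4.07 to 10.2 CPM of Cdh5), and nonpeptidergic libraries are at the lower left of the right panel.

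The broadest comparison set the 5 A-fibre subtypes against nociceptors and C-LTMRs, and 20 of 29 members passed, 17 higher in A-fibre subtypes and 3 lower. Of all genes tested 28.5% passed, 15.6% higher and 12.9% lower. The median log2 fold change was 1.40 over the members and 0.02 over all genes. The higher members were 2 of 5 type I cadherins, 6 of 13 type II cadherins, Cdh13, 3 of 4 delta-1 and 4 of 5 delta-2 protocadherins, and Pcdh20. The comparison is of means over subtypes, and the sides could overlap, though those of Pcdh7 and Pcdh9 did not. Mean Pcdh10 was 48.9 CPM in peptidergic nociceptors and 19.3 CPM in Field neurons. Mean Pcdh17 was 104 CPM in peptidergic nociceptors and 8.61 CPM in proprioceptors, and mean Cdh7 was 6.69 CPM in C-LTMRs and 1.10 CPM in Field neurons. Cdh3 had the largest difference, 5.21 (SE 0.43, adjusted p = 8.0e-11), among members above 5 CPM in any subtype, followed by Pcdh7 at 4.24 (SE 0.14, adjusted p = 6.3e-18), Pcdh18 at 4.03 (SE 0.17, adjusted p = 3.3e-16) and Cdh13 at 3.06 (SE 0.16, adjusted p = 1.8e-14). Cdh3 had 9, 1 and 1 reads in the nonpeptidergic libraries, too few to fix the size of its difference. The lower members were Cdh9 (-2.87, SE 0.22, adjusted p = 2.6e-11), Cdh1 (-1.69, SE 0.18, adjusted p = 7.2e-09) and Pcdh1 (-1.42, SE 0.13, adjusted p = 3.8e-10). Cdh2 just missed the size threshold at 0.96 (SE 0.09, adjusted p = 2.7e-09). In this comparison 10 of 12 satellite glia markers were also higher in A-fibre subtypes, with a median of 1.20, and 16 members passed with the satellite glia score in the fit, 13 higher and 3 lower. For members passing a comparison with a marker score in the fit, here and below, no share of all genes is given. Those counts therefore cannot be set against genes at large. Fibroblast markers split, 4 of 8 higher and 3 lower, and their part in the result was not tested. The calls of Cdh22 and Pcdh20, both scarce, were lost without Field library 1. On log2(RPKM + 1), which understates low genes, 9 members passed, 6 higher and 3 lower, against 1962 of 16956 genes in either direction.

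Peptidergic and nonpeptidergic nociceptors are both pain-sensing neurons, and they differed in 19 members, 15 higher in the peptidergic and 4 lower. Of all genes 26.3% passed, 15.3% higher and 10.9% lower, and the median was 1.79 over the members and 0.03 over all genes. Pcdh17 had the largest rise, 4.60 (SE 0.47, adjusted p = 2.3e-08), then Cdh13 at 4.37 (SE 0.33, adjusted p = 1.2e-10), Pcdh9 at 3.94 (SE 0.24, adjusted p = 5.3e-12) and Cdh4 at 3.90 (SE 0.38, adjusted p = 8.4e-09). All 4 delta-1 protocadherins were higher in peptidergic neurons, including Pcdh1 at 1.10 (SE 0.26, adjusted p = 0.00145). The members lower there were Cdh1 (-3.27, SE 0.39, adjusted p = 2.7e-07), Pcdh8 (-2.60, SE 0.72, adjusted p = 0.00565), Cdh11 (-2.33, SE 0.21, adjusted p = 2.5e-09) and Cdh8 (-1.26, SE 0.26, adjusted p = 3.9e-04). Satellite glia markers moved too, with 8 of 12 higher and 1 lower, and 16 members passed with that score in the fit, 13 higher and 3 lower. Fibroblast markers were higher in peptidergic neurons for 5 of 8 genes and lower for 0 (median 1.66), with sums of 75.4 to 81.6 CPM against 9.48 to 16.7 CPM. Of 10 endothelial markers 3 were higher and 0 lower, and the part of either list in the members' result was not tested. The nonpeptidergic libraries are shared by this comparison, the A-fibre comparison and the 12 depletion calls, so these results are not separate evidence. With the glia score 9 of the 12 depletion calls remained, against 3.65% of genes, and those of Cdh4, Cdh6 and Cdh20 were lost. On log2(RPKM + 1) 4 remained (Cdh2, Cdh13, Pcdh7 and Pcdh9), against 2.16% of genes depleted from these neurons.

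**Figure D5:**
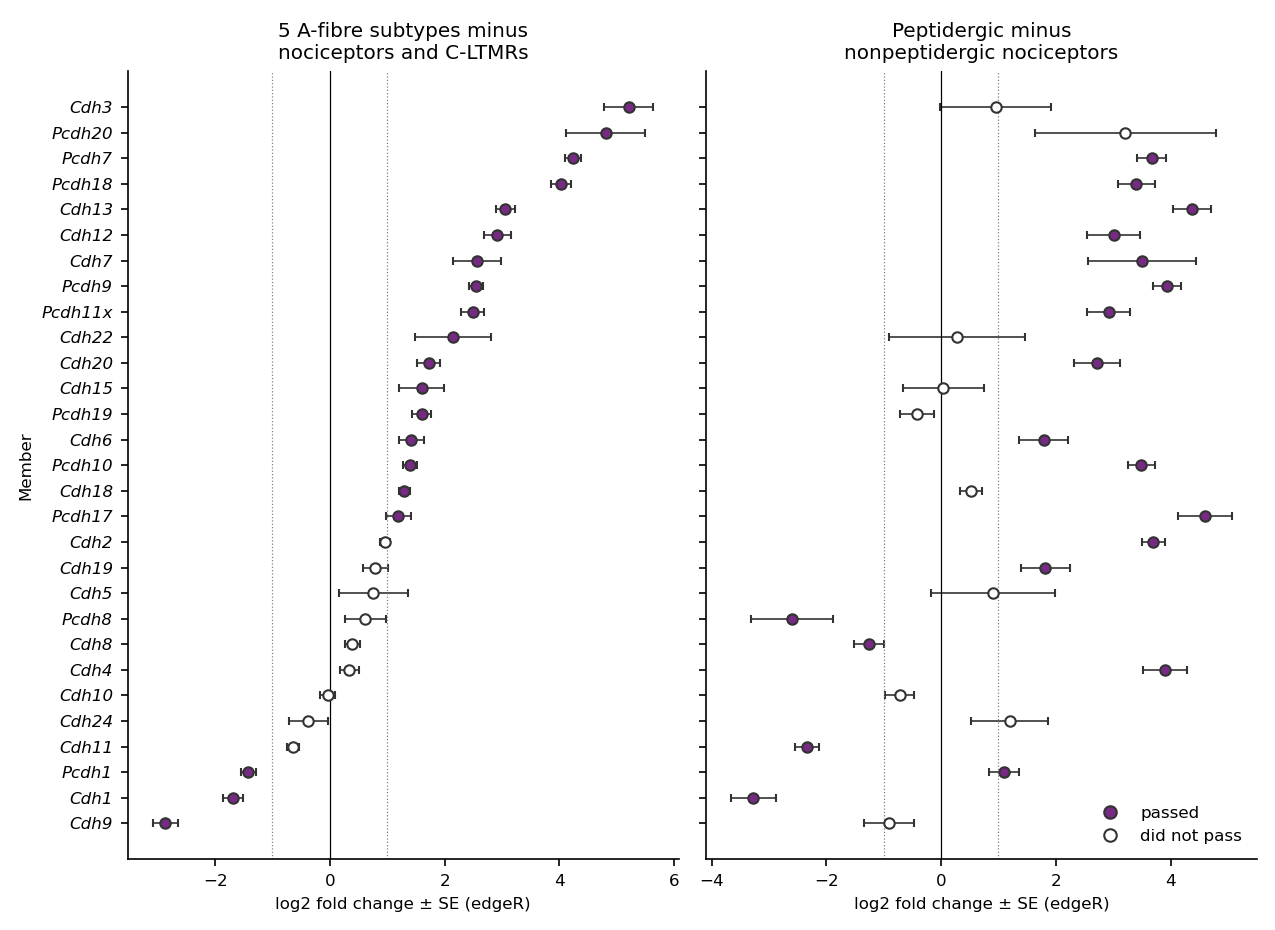
Log2 fold change with its SE (x axis, edgeR) for each of the 29 members (y axis, ordered by the left panel), for the 5 A-fibre subtypes minus nociceptors and C-LTMRs (left) and for peptidergic minus nonpeptidergic nociceptors (right); filled points passed, dotted lines mark a fold change of 1 on the log2 scale. In both panels more filled points lie to the right, 17 and 15, than to the left, 3 and 4; the panels share the nociceptor libraries.

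C-LTMRs and Aδ-LTMRs are the hair-follicle touch neurons with thin fibres, and 20 members separated them, 5 higher in C-LTMRs and 15 lower, against 18.7% of genes (6.54% higher, 12.1% lower). Higher were Cdh9 (4.77, SE 0.49, adjusted p = 6.4e-08), Cdh10 (2.22, SE 0.26, adjusted p = 4.4e-07), Cdh1 (1.83, SE 0.37, adjusted p = 4.8e-04), Cdh4 (1.37, SE 0.34, adjusted p = 0.0035) and Pcdh1 (1.34, SE 0.26, adjusted p = 3.2e-04). Among the lower members were Pcdh18 (-3.79, SE 0.30, adjusted p = 1.4e-09), Cdh13 (-3.28, SE 0.29, adjusted p = 5.8e-09), Pcdh7 (-3.15, SE 0.24, adjusted p = 5.0e-10) and Pcdh11x (-2.09, SE 0.36, adjusted p = 8.3e-05). The median was -1.09 over the members and -0.07 over all genes. On log2(RPKM + 1) 9 members passed, 5 higher and 4 lower, against 2270 of 16956 genes. On log2(RPKM + 0.1) 14 passed, 8 higher and 6 lower, so lower members did not outnumber higher ones on RPKM. In the same comparison 9 of 10 endothelial and 8 of 12 satellite glia markers were lower in C-LTMRs, none of either list higher. Of 8 fibroblast markers 5 were lower and 2 higher (median -2.84), and of 7 pericyte and smooth muscle markers 4 were lower and 0 higher (median -1.93). Their summed levels went the other way, with fibroblast markers at 133 to 160 CPM in C-LTMRs and 59.8 to 85.5 CPM in Aδ-LTMRs. Pericyte and smooth muscle markers summed to 687 to 1755 CPM in C-LTMRs and 184 to 541 CPM in Aδ-LTMRs. The part of either list in the result was not tested. With the glia score in the fit 13 members passed, and with the endothelial score 6, 1 higher and 5 lower. Endothelial markers summed to 40.3 to 72.7 CPM in Aδ-LTMRs and 2.36 to 19.5 CPM in the other subtypes. Endothelial score and subtype thus differ together, and that fit cannot separate them. Cdh10, Cdh13, Pcdh7 and Pcdh18 passed under each of the alternatives that kept more than 1 Aδ-LTMR library. The fit without the pair of Aδ-LTMR libraries with low mapping rates and the fit on reads of 15 to 50 bases each kept 1. Their spread came from the other subtypes, so no count is given for them.

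SA1 and Field neurons carry the same alleles and differ in the time and dose of tamoxifen, and 6 members were higher in SA1 neurons, against 3.21% of genes, and 0 lower, against 5.66% (8.87% in either direction). They were Pcdh20, which had no read in Field libraries 2 and 3, Pcdh8 (2.55, SE 0.73, adjusted p = 0.0229), Cdh12 (1.50, SE 0.41, adjusted p = 0.0179), Pcdh19 (1.48, SE 0.30, adjusted p = 0.00172), Cdh8 (1.23, SE 0.26, adjusted p = 0.00251) and Pcdh11x (1.18, SE 0.36, adjusted p = 0.0291). Among the members with a negative difference, 3 had an unadjusted p under 0.05 in edgeR, and 0 passed in DESeq2. Of these Cdh10, at -0.95 (SE 0.25, adjusted p = 0.0138), missed the size threshold alone. All SA1 libraries were above all Field libraries for Cdh8, Pcdh11x, Pcdh19 and Pcdh20 of these, and for Cdh7 and Cdh13, which did not pass, so for 6 of 29 members against 9.32% of genes. They were all below for Cdh10, Pcdh17 and Pcdh18, 3 members against 12.2% of genes. SA1 library 1 lay within the Field range for Pcdh8 and below its top for Cdh12. Without Field library 3 there were 3 members, Cdh8 and Pcdh19 higher and Cdh10 lower. Other single libraries also ended calls: SA1 library 2 those of Pcdh8, Pcdh11x and Pcdh20, SA1 library 3 that of Cdh12, Field library 1 that of Pcdh8 and Field library 2 that of Pcdh20. Lower members appeared when an SA1 library was left out. There were 6 higher and 1 lower without library 1, 4 and 1 without library 2, and 5 and 3 without library 3. No share of all genes is given for these fits. All SA1 libraries held reads of 25 to 50 bases and all Field libraries reads of 15 to 50, so read length and subtype differ together. With read-length class in the fit, which Aβ RA-LTMRs of both classes make possible, 1 member was higher, Pcdh19 at 1.25, and 3 were lower, Cdh10 at -1.41, Pcdh17 at -1.55 and Pcdh18 at -1.25 on the log2 scale.

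Proprioceptors against the 3 Aβ-LTMR subtypes compare large fibres of muscle with those of skin, and 14 members passed, 7 higher and 7 lower, against 17.0% of genes (10.7% higher, 6.24% lower). Higher in proprioceptors were Pcdh8 (4.09, SE 0.47, adjusted p = 3.3e-07), Cdh12 (3.59, SE 0.28, adjusted p = 6.5e-10), Cdh7 (2.61, SE 0.48, adjusted p = 1.6e-04), Cdh22 (2.37, SE 0.79, adjusted p = 0.0244), Cdh20 (2.34, SE 0.26, adjusted p = 1.6e-07), Pcdh10 (2.06, SE 0.16, adjusted p = 5.9e-10) and Pcdh11x (1.42, SE 0.26, adjusted p = 1.4e-04). Lower were Cdh3 (-6.02, SE 0.71, adjusted p = 4.9e-07), Pcdh17 (-3.32, SE 0.41, adjusted p = 8.9e-07), Cdh9 (-2.99, SE 0.48, adjusted p = 3.6e-05), Cdh10, Cdh4, Pcdh1 and Pcdh19, the last 4 between -1.37 and -1.08. Thus type II cadherins moved in both directions, with Cdh7, Cdh12, Cdh20 and Cdh22 higher and Cdh9 and Cdh10 lower. The call of Cdh22, whose mean was 1.16 CPM in proprioceptors, was lost without proprioceptor library 1, and that of Pcdh19 without Field library 1 or proprioceptor library 3. Both were also lost with read-length class or the satellite glia score in the fit, and Cdh22 with the endothelial score. Satellite glia markers were higher in proprioceptors in 5 of 12 cases and lower in none, and 10 members passed with that score in the fit, 5 in each direction. With the endothelial score in the fit, 3 of the 8 enrichment calls over all subtypes held, those of Cdh10, Cdh12 and Pcdh1, and with the glia score 5 held, those of Cdh9, Cdh10, Cdh12, Pcdh1 and Pcdh10.

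Several members follow one another on a chromosome with no other member between them. Such neighbours did not always have their highest mean in the same subtype. Most were far apart, with gaps of 0.959 to 3.56 Mb on chromosome 15, 4.99 and 0.748 Mb on chromosome 1 and 3.93 to 4.67 Mb on chromosome 14. Other genes between them were not counted, and chromosomes 8 and 14 hold further members that are not listed here. On chromosome 15 the type II cadherins Cdh6, Cdh9, Cdh10, Cdh12 and Cdh18 follow one another, and their highest subtypes were Aβ RA-LTMRs, C-LTMRs, C-LTMRs, proprioceptors and Aδ-LTMRs in that order. On chromosome 1 Cdh20, Cdh7 and Cdh19 all had their highest mean in proprioceptors. On chromosome 8 Cdh3 and Cdh1 are 0.0461 Mb apart, Cdh3 being highest in Field neurons and Cdh1 in nonpeptidergic nociceptors. On chromosome 14 Pcdh8, Pcdh17, Pcdh20 and Pcdh9 were highest in proprioceptors, Field neurons, Aβ RA-LTMRs and Field neurons. Among the genes of this paragraph the step from the highest mean to the next passed for Cdh9, Cdh10, Cdh12, Cdh20 and Pcdh8 and for none of the others.

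Genes whose proteins act with the members were counted in the comparison of A-fibre subtypes with the others. Of 12 catenins and linkers, which tie cadherins to actin, 1 passed, Arvcf, lower at -1.31 (SE 0.11, adjusted p = 2.1e-10), with a mean of 13.5 CPM against 33.7 CPM. Of 9 WAVE complex genes 3 passed, all lower, Wasf2 at -1.41, Cyfip2 at -1.16 and Abi1 at -1.08. Of 3 catalytic subunits of PP1 0 passed in edgeR and 0 in DESeq2, with 2 at an unadjusted p under 0.05. Of 7 genes of cadherin shedding 0 passed in edgeR and 0 in DESeq2, with 1 at an unadjusted p under 0.05. Of 16 other genes of the cadherin superfamily 12 could be tested, and 9 passed, 6 higher and 3 lower. The calsyntenin Clstn3 rose from 8.43 to 52.2 CPM (log2 fold change 3.44, SE 0.14, adjusted p = 1.4e-16), the giant cadherin Fat3 differed by 1.79, Celsr3 by -1.16 and Dchs1 by -1.20. The 28.5% of genes that passed in this comparison is the background for each of these counts.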

How the data were processed

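Sorted pools of adult mouse dorsal root ganglion neurons were profiled by RNA sequencing after NuGEN amplification, 26 libraries in 8 subtypes, grouped by the sample labels. The deposited read counts per gene are raw, and the submitters' processing notes name FastQC 0.11.3, the aligner STAR, HTSeq 0.6.1, Cuffdiff, DESeq2 1.14.1 and the mm10 build. The authors also deposited RPKM values, used for shares and as an alternative, and an alignment summary, which gives mapped read counts, read lengths and mapping rates as a fraction (printed here as percent). The regularized log2 values were not used. Mapping parameters and the handling of strand are not given in the sources used here.

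Counts of 17411 genes past edgeR's filterByExpr were scaled by TMM and tested with edgeR 4.0.16 in R 4.3.3 (quasi-likelihood, all 26 libraries in 1 model, Benjamini-Hochberg over all genes tested), and SE is the absolute log2 fold change over the square root of F. The common dispersion of 0.107 gives a coefficient of variation of 0.327 between libraries, which limits precision more than depth does for members above a few CPM. A member was enriched or depleted when it differed in the same direction from all 7 others. Members that were enriched or depleted, or that passed the F test with a mean of at least 5 CPM in a subtype, are given in every library. The script was tested on simulated data. Alternatives were DESeq2 1.42.0, its size factors in edgeR (RLE), no filter, limma 3.58.1 on log2(RPKM + 1) and log2(RPKM + 0.1), a replicate block, covariates for read-length class and for satellite glia and endothelial marker scores, and libraries left out. A fit on the 18 libraries of 15 to 50 bases, which kept 1 Aδ-LTMR library, was chosen after seeing the alignment summary. The members, gene lists and tests were chosen with earlier results of these data known. Marker sums of fibroblasts (9.48 to 160 CPM), pericytes (up to 1755 CPM), macrophages (up to 7.05 CPM) and epithelium (up to 0.666 CPM) enter no fit. Promoter windows on chromosome 18 were not used. Symbols came from the RPKM table for 38828 genes and from a gene name table for 180, and 9 had an identifier alone.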

Additional observations from a re-analysis of the deposited data

Results flagged for a closer look

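Cdh19, the glial cadherin, had a library that stood apart from the rest of its subtype. Aβ RA-LTMR library 4 measured 8.31 CPM, while the other 4 libraries lay between 14.5 and 16.4 CPM, so that the gap took up 0.768 of the range, above the critical value of 0.71 for 5 samples. Of 29 members examined in this subtype, 1 was marked in this way, and chance alone marks about 1 in 20.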

How the results depend on the processing

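DESeq2 and RLE scaling kept all 100 calls on members, the fit without a low-count filter kept 96, and no call changed direction under any alternative run. RLE moved the median of all genes between the nociceptors from 0.03 to 0.12. On log2(RPKM + 1), with the filter and without, 9 members passed in the A-fibre comparison, 11 between nociceptors, 9 between C-LTMRs and Aδ-LTMRs and 1 between SA1 and Field neurons. With the filter the genes that passed were 1962, 2829, 2270 and 631 of 16956, in that order. Where a count under an alternative has no share of all genes beside it, the share of the main fit does not apply. Such a count cannot be set against genes at large. Between C-LTMRs and Aδ-LTMRs 13 passed with the satellite glia score and 6 with the endothelial score. Over all calls these scores ended 28 and 24 of 100, and read-length class ended 14. More calls ended on log2(RPKM + 1), which kept 50 and ended 44 with the filter, and kept 50 and ended 47 without it. On log2(RPKM + 0.1) 80 calls were kept and 14 ended. Leaving out each library in turn gave 28 members by the F test each time, 15 to 19 enriched or depleted, 18 to 20 in the A-fibre comparison, 19 to 20 between nociceptors, 17 to 22 between C-LTMRs and Aδ-LTMRs, 3 to 8 between SA1 and Field neurons (3 without Field library 3) and 13 to 16 for proprioceptors. The cause of these changes was not tested.

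The replicate numbers do not pair the libraries. Over 84 pairs of same-numbered libraries the correlation of deviations ran from -0.155 to 0.245, 4 were over 0.1, and 9 of 24 libraries correlated best with their own number. With a replicate block 28 members passed the F test, 20 the A-fibre comparison, 19 that of the nociceptors, 22 that of C-LTMRs and Aδ-LTMRs, 5 that of SA1 and Field neurons and 14 that of proprioceptors. The call of Pcdh20 between SA1 and Field neurons was lost. Cdh15 has no value on RPKM, and SA1 neurons could not enter the fit on reads of 15 to 50 bases. Members at a few reads in nonpeptidergic nociceptors (Cdh3, Cdh7, Cdh22, Pcdh20) have folds that the depth does not fix.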
